A study of Homo sapiens with 8 samples.

Results

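PC3 and DU145 are human prostate cancer cell lines that grow without androgen signalling, and here their standing expression was set side by side. The comparison used the 2 PC3 arrays and the 2 DU145 arrays among the 8 arrays of the study. The other 4 arrays came from C4-2B and VCaP, lines that keep luminal prostate traits, and were used to estimate the spread and to place levels. Every line had been transfected with non-targeting siRNAs or with siRNAs against DNAPK, the DNA-dependent protein kinase of DNA end joining, and was harvested after 48 hours, with 1 array for each line and siRNA. PC3 with non-targeting siRNA was therefore compared with DU145 with non-targeting siRNA, and PC3 with DNAPK siRNA with DU145 with DNAPK siRNA. PC3 was grown in RPMI1640 and DU145 in DMEM, per the labels' protocols, so line and medium cannot be told apart. Each line stands for itself alone, since 1 culture was taken per condition.

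PC3 was established from a bone metastasis and DU145 from a brain metastasis. Both are used as models of advanced disease that no longer depends on the androgen receptor, and both are epithelial by origin while carrying mesenchymal traits. Epithelial cells are held together by cadherins tied to actin through catenins, and transcription factors such as GRHL2 and EHF keep the epithelial programme active. Background on other gene groups is given where each is described.

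Values are log2 RMA signals, so 1 unit is a 2-fold change, and every difference is PC3 minus DU145. For each gene the value with non-targeting siRNA is given before the value with DNAPK siRNA. A gene was called where the limma adjusted p (Benjamini-Hochberg over 16796 genes) was at most 0.05 and both pairs differed by at least 1 in the same direction. The SE after ± comes from the same fit, and the difference is the mean of the 2 pairs. Levels of different genes come from different probes and are not compared. Where a line read near 2.51, the filter level that the dimmest 25% of genes did not exceed, its signal was not shown to be above background, and the difference gives no exact fold.

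The lines differed widely and almost evenly in both directions. PC3 was higher for 1050 genes (6.25% of those tested) and DU145 for 922 (5.49%). Of these, 332 and 239 were past 4-fold in both pairs. With array medians set equal the counts were 925 and 1044, so which line had more higher genes depended on the scaling. By fold alone, 1058 genes (6.3%) were past 2-fold in favour of PC3 in both pairs and 926 (5.51%) in favour of DU145, and 2 genes were past 2-fold in opposite directions. Another 720 were past 2-fold with non-targeting siRNA only and 905 with DNAPK siRNA only. PRKDC, the targeted gene, read 9.17 and 7.17 in PC3 and 9.17 and 8.08 in DU145. The controls were thus level and the PC3 knockdown array was the lower of the treated ones. The median difference over all tested genes was -0.02.

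**Figure D1:**
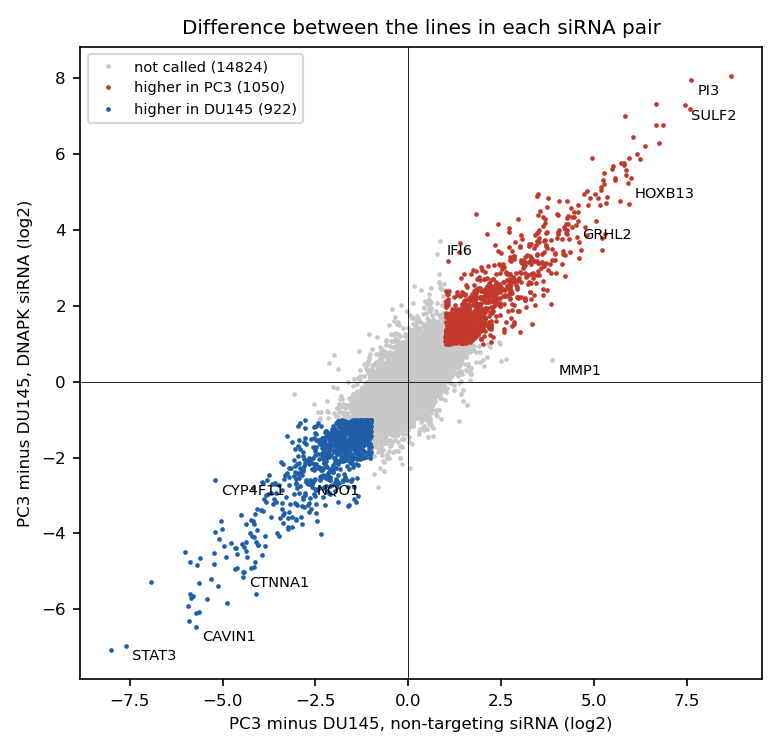
Difference between PC3 and DU145 for every tested gene, non-targeting siRNA pair on the horizontal axis, DNAPK siRNA pair on the vertical axis (log2). Red points are the 1050 genes called higher in PC3, blue points the 922 called higher in DU145, and grey points the rest. Called genes have the same direction in both pairs by the rule of calling. MMP1 and IFI6, picked among the genes whose pairs differed most, lie off the diagonal.

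Identity markers set PC3 and DU145 apart from C4-2B and VCaP only in part. KLK2, a kallikrein of luminal prostate cells, read 4.42 and 4.07 in PC3 and 3.94 and 4.47 in DU145, against at least 10.31 on each C4-2B and VCaP array. KLK3, which encodes PSA, read 3.68 and 3.43 in PC3 and 3.84 and 2.94 in DU145, against 10.12 and 10.24 in C4-2B but 4.46 and 4.75 in VCaP. SLC45A3, a luminal prostate transporter gene, read 6.43 and 6.19 in PC3 and 3.97 and 4.45 in DU145, so that PC3 lay nearer to VCaP (7.23 and 7.29) than to DU145. EPCAM and CDH1 (E-cadherin) were at 8.84 or more on all 4 arrays of PC3 and DU145. The probe sets of the luminal keratins KRT8 and KRT18 read 5.47 or less on all 8 arrays and did not mark the lines. The 5 measured immune markers ranged from 1.52 to 2.79 in PC3 and from 1.37 to 3.15 in DU145. Of 4 fibroblast markers the range was 1.38 to 5.06 in PC3 and 1.40 to 4.40 in DU145. The highest of these was COL1A1. In RNA from whole cultures, fewer cells of a type and less RNA per cell cannot be told apart.

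Genes were ranked by the weaker of their pairs, leaving out small RNA genes, pseudogenes and genes with LOC, LINC or antisense symbols. Among those left out, LINC02582 (8.37) and the pseudogene RPL31P11 (-7.53) had the largest differences of all. Of the ranked genes, PI3 led in PC3. PI3, which encodes the elastase inhibitor elafin, read 11.98 and 11.90 in PC3 and 4.35 and 3.97 in DU145, a difference of 7.78 ± 0.25 (adjusted p = 2.07e-06). FST, which encodes follistatin, a secreted trap for activins, read 10.35 and 9.96 in PC3 and 2.78 and 2.78 in DU145, a difference of 7.38 ± 0.20 (adjusted p = 1.68e-06). SULF2, an extracellular enzyme that removes sulfate groups from heparan sulfate, read 10.01 and 9.68 in PC3 and 2.55 and 2.41 in DU145, a difference of 7.36 ± 0.18 (adjusted p = 1.68e-06). The ranking picks genes with wide gaps between PC3 and DU145. For these genes C4-2B and VCaP sat near DU145. TFF1, a trefoil peptide of mucous epithelia, read 9.30 and 8.99 in PC3 and 2.55 and 2.70 in DU145. INHBB, the activin beta-B subunit, read 9.60 and 9.20 against 3.86 and 3.45. The other 10 of the first 15 in this ranking were MSMP, ADGRF1, SPTSSB, CALB1, SERPINB7, FBN2, TRBC2, BHLHE41, SRGN and SHISA3, with differences between 5.79 and 6.98. SRGN, the proteoglycan serglycin, was the most uneven in DU145, where it read 4.77 and 3.53.

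On the DU145 side, the ranked genes were led by STAT3, the transcription factor downstream of interleukin-6 type cytokines. It read 2.33 and 2.75 in PC3 and 9.94 and 9.70 in DU145, a difference of -7.28 ± 0.19 (adjusted p = 1.68e-06). C4-2B and VCaP were also high, at 7.02 or more, so the low level was seen in PC3 alone among these lines. CYP24A1, the enzyme that inactivates vitamin D hormone, read 2.11 and 2.03 in PC3 and 9.04 and 7.31 in DU145, a difference of -6.10 ± 0.39 (adjusted p = 4.04e-05). UCHL1, a deubiquitinase abundant in neurons, read 3.45 and 3.21 in PC3 and 9.10 and 9.27 in DU145, a difference of -5.85 ± 0.20 (adjusted p = 2.48e-06). The gap between PC3 and DU145 in these genes follows from the ranking and is no added evidence. KYNU, the kynureninase of tryptophan breakdown, read 2.49 and 2.86 against 8.38 and 7.6. BRDT and TEX15, germ cell genes of the testis, read 7.05 and 7.54, and 7.34 and 7.53, in DU145 and at most 2.21 in PC3. The other genes among the first 15 were ATP6V0A1, SLCO4C1, CAVIN1, LMO3, SFTA3, BCHE, TNFRSF10D, EHD2 and LUCAT1, with differences between -6.09 and -5.24.

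**Figure D2:**
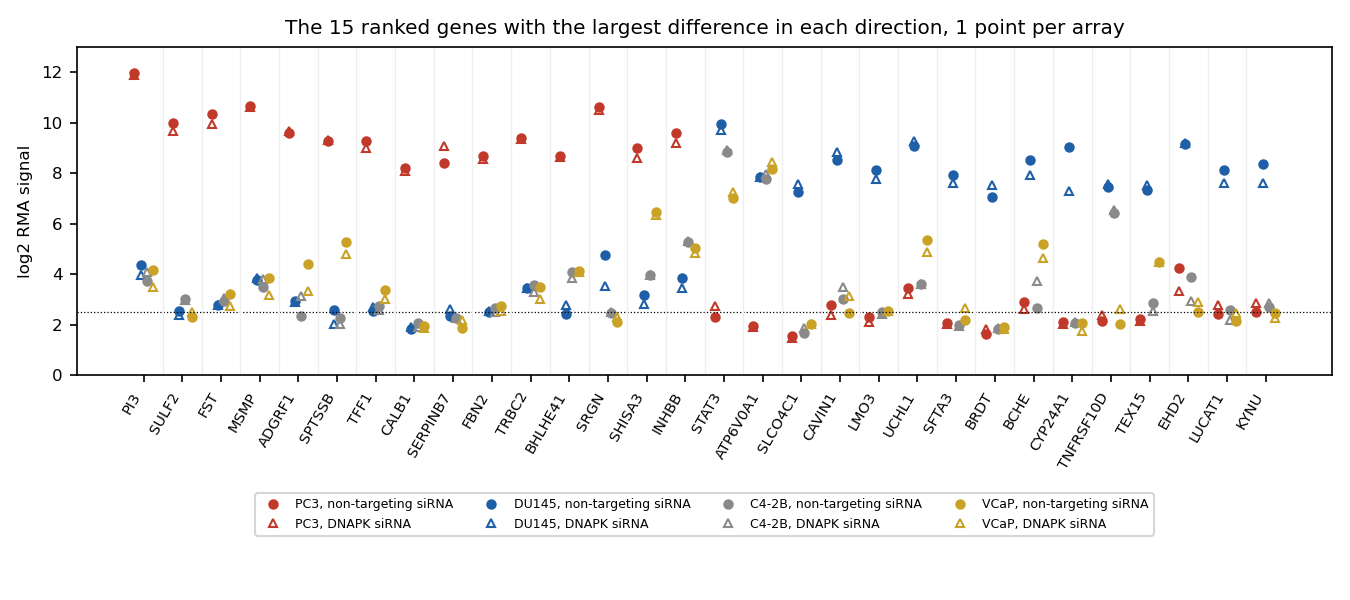
Log2 RMA signal of the 15 ranked genes with the largest difference in each direction, 1 point per array. Circles are non-targeting siRNA and triangles DNAPK siRNA, coloured by line, and the dotted line is the filter level of 2.51. PC3 and DU145 are separated for every gene because the genes were ranked by that gap, and C4-2B and VCaP follow neither line throughout.

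Among receptors and partners of the STAT3 pathway, named after their values were seen, the differences were smaller. OSMR, the oncostatin M receptor, was higher in DU145, at 9.80 and 9.45 against 7.26 and 7.16 in PC3 (difference -2.41 ± 0.20, adjusted p = 1.39e-04). IL6ST, the shared signalling subunit gp130, differed by -0.96 ± 0.16 and was not called. JAK1, the kinase bound to these receptors, differed by 0.03 ± 0.26 and was not called. SOCS3, a feedback inhibitor induced by STAT3, read 5.10 and 5.16 in PC3 and 4.97 and 4.65 in DU145 and was not called (adjusted p = 0.201).

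STAT3 was not low in isolation. Along chromosome 17, in the gene order of RefSeq (GRCh38.p14), it is followed by CAVIN1 and ATP6V0A1, and both were also low in PC3. ATP6V0A1, a subunit of the proton pump of acidic organelles, read 1.95 and 1.94 in PC3 and 7.87 and 7.85 in DU145, a difference of -5.92 ± 0.16 (adjusted p = 1.68e-06). CAVIN1, a coat protein of caveolae, read 2.80 and 2.41 in PC3 and 8.52 and 8.86 in DU145, a difference of -6.09 ± 0.25 (adjusted p = 6.10e-06). KAT2A, a histone acetyltransferase a few genes ahead of STAT3, read 3.0 and 3.38 in PC3 and 7.95 and 7.72 in DU145, a difference of -4.64 ± 0.22 (adjusted p = 9.42e-06). RAB5C, an endosomal GTPase gene between them, was called with -1.95 ± 0.26 (adjusted p = 0.00139). For STAT3, ATP6V0A1 and KAT2A the C4-2B and VCaP arrays were all at 7.02 or higher, but for CAVIN1 they were at 3.48 or lower, like PC3.

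The other 11 tested genes of the stretch were also lower in PC3 on average, by smaller differences, and none was called. For HCRT the pairs had opposite signs (0.27 and -0.37). The adjusted p was above 0.05 for HCRT (0.881), HSD17B1 (0.522), COASY (0.159), KCNH4 (0.127) and MLX (0.0742). STAT5B, the STAT gene nearest KAT2A, read 4.33 and 3.51 in PC3 and 5.25 and 5.94 in DU145, and was not called because the pair with non-targeting siRNA differed by -0.92. GHDC and STAT5A differed by -0.91 and -0.83. Nearer the far end from ATP6V0A1, ZNF385C, DHX58, KCNH4 and HCRT differed by -0.73, -0.62, -0.43 and -0.05, and the adjusted p was at most 0.05 for ZNF385C (0.0172) and DHX58 (0.0353). Beyond ATP6V0A1, the differences were -0.94 for NAGLU, -0.16 for HSD17B1, -0.37 for COASY and -0.55 for MLX. HSPB9 was too dim to be tested. Genes of this stretch other than STAT3, CAVIN1 and ATP6V0A1 were named after their values were seen. RNA levels do not show whether DNA is present, and copy number was not analysed here.

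**Figure D3:**
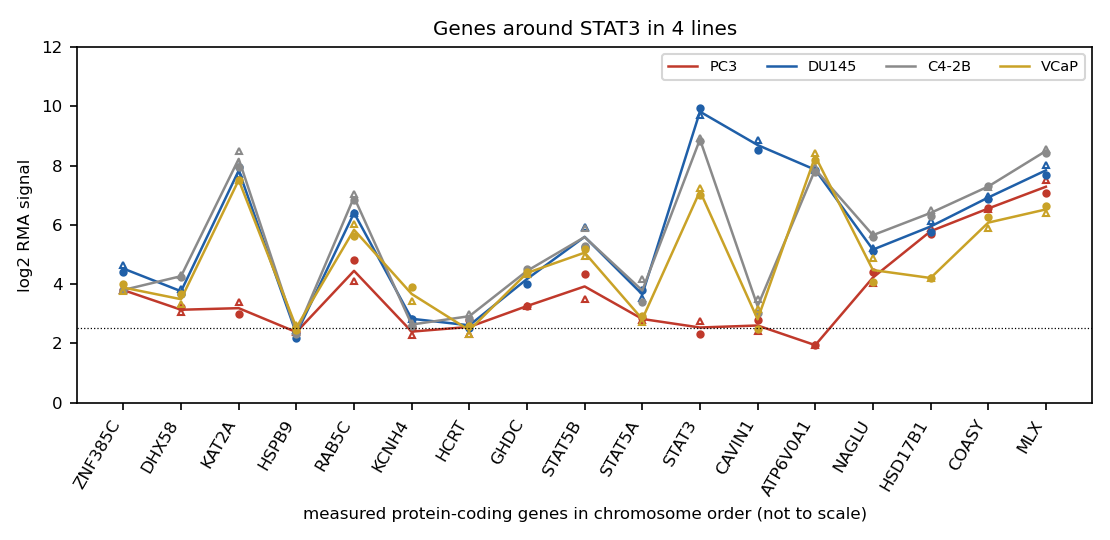
Log2 RMA signal of measured protein-coding genes around STAT3 on chromosome 17, in RefSeq order and not to scale. Lines join the mean of the 2 arrays of each cell line, circles are non-targeting siRNA and triangles DNAPK siRNA, and the dotted line is the filter level. PC3 lies near or below the filter level at STAT3 and ATP6V0A1 while the other 3 lines stay at 7.02 or above.

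CTNNA1, which encodes the alpha-catenin that links cadherin complexes to actin, read 3.13 and 2.67 in PC3 and 7.59 and 7.69 in DU145, a difference of -4.74 ± 0.19 (adjusted p = 5.49e-06). PC3 is known as a line without functional alpha-catenin. C4-2B and VCaP, at 7.0 to 7.34, were close to DU145. Of the 8 measured genes among its 10 nearest annotated neighbours on chromosome 5, 1 was called. This was EGR1, an immediate-early transcription factor gene, at 2.98 and 3.03 in PC3 and 6.35 and 6.54 in DU145. The others, among them HSPA9 and ETF1, differed by -0.60 to -0.21. The nearest measured genes on either side, HSPA9 and SIL1, differed by -0.21 each.

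RB1 and CDKN2A are cell cycle brakes, and DU145 is known for a defective RB protein. RB1 transcript was close in the lines, at 8.37 and 8.44 in PC3 and 8.44 and 8.48 in DU145, a difference of -0.05 ± 0.16 (adjusted p = 0.841). CDKN2A, which encodes the p16 inhibitor of CDK4 and CDK6, read 4.42 and 4.46 in PC3 and 6.18 and 6.12 in DU145, a difference of -1.71 ± 0.15 (adjusted p = 1.94e-04). CDK6, its target kinase, had the opposite direction, at 5.96 and 6.09 in PC3 and 4.73 and 4.36 in DU145. These were the only called genes among the 24 tested for RB1, D cyclins and CDK inhibitors (4.17% each way, against 6.25% and 5.49% over all genes). MTAP and CDKN2B, which flank CDKN2A on chromosome 9, differed by -0.30 and 0.41 and were not called. Farther along, ELAVL2 was called higher in PC3, with a difference of 4.09. After RB1 on chromosome 13, LPAR6 and RCBTB2 were called higher in PC3, with differences of 1.14 and 1.15. Other tested close neighbours of RB1 and CDKN2A were not called.

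Of 38 gene lists, those with the largest shares called in favour of PC3 were epithelial and luminal. Over all tested genes the shares were 6.25% for PC3 and 5.49% for DU145. The lists are small, so a few genes move a share, and no list was tested against these shares. For epithelial regulators and surface genes, 11 of 27 tested were higher in PC3 (40.7%) and 1 in DU145 (3.70%). The median difference was 0.83 against -0.02 over all genes. GRHL2, a transcription factor that maintains epithelial identity, read 7.72 and 7.49 in PC3 and 3.19 and 3.36 in DU145, a difference of 4.33 ± 0.18 (adjusted p = 5.79e-06). EHF, an epithelial ETS factor, read 7.73 and 7.50 in PC3 and 3.17 and 3.27 in DU145, a difference of 4.40 ± 0.19 (adjusted p = 6.48e-06). For both, PC3 lay between DU145 and the C4-2B and VCaP arrays, which read 8.92 or more. ESRP1, a splicing regulator of epithelial isoforms, read 9.53 and 9.27 in PC3 and 6.78 and 6.82 in DU145. CEACAM5, an adhesion glycoprotein, read 8.40 and 7.79 in PC3 and 2.69 and 3.03 in DU145, and at most 2.71 in C4-2B and VCaP. AP1M2, PRSS8, CEACAM6, TMC4, ST14, MAL2 and RAB25 were the other called members, with differences from 1.30 to 3.84. CEACAM6 was not called without the PC3 non-targeting array (adjusted p = 0.0746) or without the DU145 DNAPK siRNA array (adjusted p = 0.0746). MUC1, a membrane mucin, was the exception, at 5.84 and 4.98 in PC3 and 9.98 and 9.07 in DU145 (difference -4.12 ± 0.26, adjusted p = 4.04e-05). CDH1 differed by 0.28 ± 0.16 and EPCAM by 0.39 ± 0.16, and neither was called.

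Luminal prostate genes gave a similar split, with 8 of 21 tested higher in PC3 (38.1%) and 1 in DU145 (4.76%, median 0.91). Over all genes the shares were 6.25% and 5.49%. HOXB13, a homeobox factor of the prostate lineage, read 8.0 and 7.58 in PC3 and 2.07 and 2.36 in DU145, a difference of 5.58 ± 0.24 (adjusted p = 6.98e-06). PC3 was at the level of C4-2B and VCaP, which read 7.41 to 8.03. TMPRSS2, an androgen-regulated membrane protease, read 6.72 and 7.17 in PC3 and 2.18 and 3.37 in DU145, below the 8.68 to 9.56 of C4-2B and VCaP. SPDEF, an ETS factor of secretory cells, read 8.59 and 8.32 in PC3 and 5.78 and 4.89 in DU145, and AGR2, a secretory pathway disulfide isomerase, 6.61 and 5.93 against 1.51 and 1.09. The reverse held for NKX2-1, a lung and thyroid lineage factor, which read 2.67 and 2.55 in PC3 and 7.29 and 7.45 in DU145, a difference of -4.76 ± 0.20 (adjusted p = 6.48e-06). SFTA3, whose RefSeq span overlaps that of NKX2-1, was also among the first 15 ranked on the DU145 side, at 7.95 and 7.62 against 2.07 and 2.02 in PC3. Because the spans overlap, the probe sets of NKX2-1 and SFTA3 may not read separate transcripts.

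Mesenchymal genes were split between the lines. Of 24 tested, 6 were higher in PC3 (25%) and 4 in DU145 (16.7%), against 6.25% and 5.49% over all genes. Their median difference was -0.09. TWIST1, a mesenchymal transcription factor, read 5.42 and 5.31 in PC3 and 1.47 and 1.96 in DU145, a difference of 3.65 ± 0.20 (adjusted p = 2.14e-05). FN1 (fibronectin) read 9.29 and 8.66 in PC3 and 5.81 and 5.33 in DU145, and SPARC, a matrix glycoprotein, 6.13 and 6.71 against 3.27 and 3.39. On the DU145 side, TGFBI, a matrix protein induced by TGF-beta, read 6.83 and 6.16 against 2.92 and 2.76 in PC3. NT5E, MYL9 and LOXL2 were the other members higher in DU145, with differences of -2.08, -1.76 and -1.44. VIM, the mesenchymal filament vimentin, read 7.82 and 7.22 in PC3 and 8.19 and 8.15 in DU145 and was not called (difference -0.65 ± 0.22, adjusted p = 0.0604). ZEB1, a repressor of epithelial genes, differed by -0.67 ± 0.18 and was not called.

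Cadherins followed the same mixed pattern. CDH2 (N-cadherin) read 7.77 and 7.72 in PC3 and 2.25 and 2.06 in DU145, a difference of 5.59 ± 0.16 (adjusted p = 1.68e-06). CDH11, a cadherin of osteoblasts and mesenchyme, read 8.31 and 8.19 in PC3 and 2.74 and 2.87 in DU145, a difference of 5.44 ± 0.16 (adjusted p = 1.68e-06). Both cadherins were at most 3.17 in C4-2B and VCaP, so among these lines PC3 alone was high. The list held 19 tested genes, of which 3 were higher in PC3 (15.8%) and 2 in DU145 (10.5%), CTNNA1 and AFDN. Over all genes the shares were 6.25% and 5.49%. CTNNB1 (beta-catenin) differed by 0.06 ± 0.22 and JUP (plakoglobin) by -0.14 ± 0.18, and neither was called. In desmosomes and hemidesmosomes, 3 of 17 were higher in PC3 (17.6%) and 2 in DU145 (11.8%). PKP1 read 6.71 and 6.98 in PC3 and 3.42 and 3.37 in DU145, and DST 7.84 and 7.86 against 9.64 and 9.63.

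**Figure D4:**
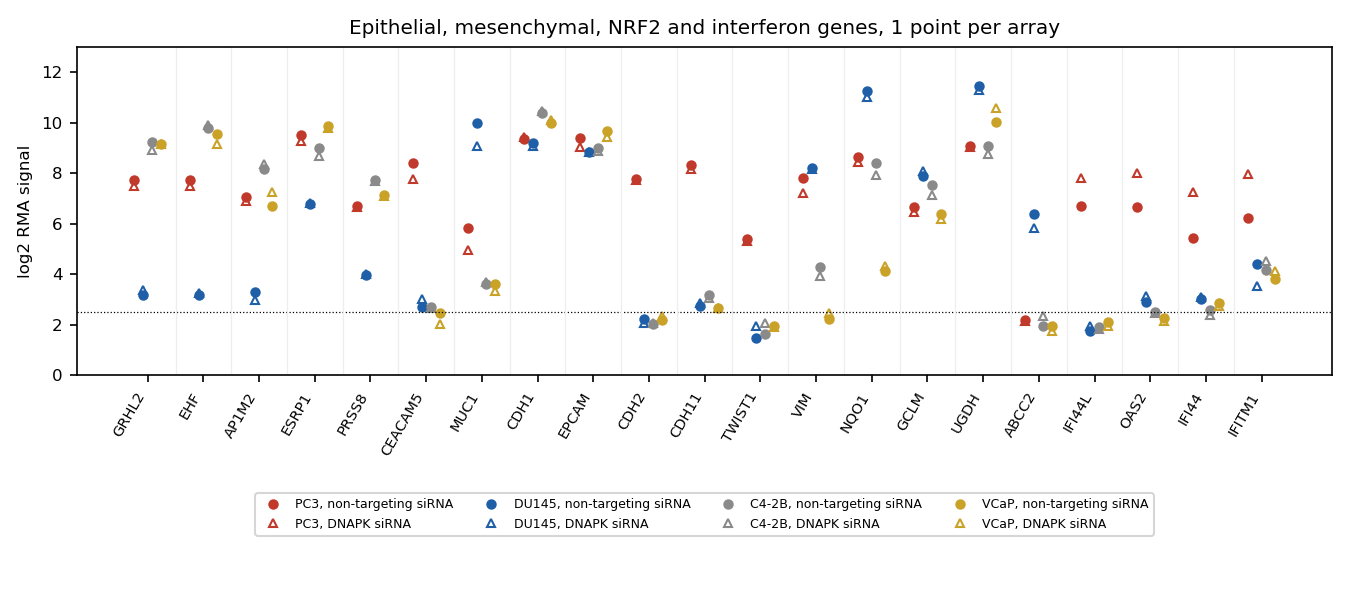
Log2 RMA signal of epithelial, mesenchymal, NRF2 and interferon genes, 1 point per array. Circles are non-targeting siRNA and triangles DNAPK siRNA, coloured by line, and the dotted line is the filter level of 2.51. CDH1 and EPCAM are high in every line, GRHL2 and EHF are low in DU145 alone, and CDH2 and CDH11 are high in PC3 alone.

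Called integrin and matrix genes were mainly higher in PC3. Of 20 integrin genes tested, 4 were higher in PC3 (20%), ITGB8, ITGB6, ITGB4 and ITGA2, and none in DU145. The shares over all genes were 6.25% and 5.49%, and on 20 genes none is close to the latter. The integrin median was 8.34e-04. ITGB8, a subunit that activates latent TGF-beta, read 8.10 and 8.02 in PC3 and 4.47 and 3.68 in DU145, a difference of 3.99 ± 0.24 (adjusted p = 2.80e-05). ITGB6 was uneven in PC3, at 5.19 and 6.54, against 2.23 and 2.27 in DU145. Laminins, collagens and basement membrane genes gave 6 of 29 higher in PC3 (20.7%) and 1 in DU145 (3.45%, median 0.49). COL5A2 and the type VI collagen genes COL6A1, COL6A2 and COL6A3 were among the 6, with COL6A3 at 6.61 and 6.25 in PC3 and 2.94 and 2.84 in DU145. LAMA1, the laminin alpha-1 chain, was the exception, at 2.72 and 2.68 in PC3 and 6.69 and 6.07 in DU145.

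Proteases and their inhibitors went both ways. Of 33 tested, 7 were higher in PC3 (21.2%) and 4 in DU145 (12.1%), against 6.25% and 5.49% over all genes. PLAT, the tissue plasminogen activator, read 9.87 and 8.99 in PC3 and 3.94 and 4.31 in DU145, a difference of 5.31 ± 0.33 (adjusted p = 3.5e-05). MMP13, a collagenase, read 7.94 and 6.57 in PC3 and 2.65 and 2.68 in DU145. SERPINB5 (maspin), an epithelial serpin, read 8.97 and 8.86 against 5.29 and 4.59. CTSL, a lysosomal protease, was higher in DU145, at 7.98 and 7.94 against 4.95 and 5.24. MMP1 passed the adjusted p (0.0326) but not the fold in both pairs. It read 6.42 and 4.37 in PC3 and 2.54 and 3.81 in DU145, so the pairs differed by 3.88 and 0.56.

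Caveolae are small pits of the cell membrane whose coat is built from caveolins and cavins and whose neck carries EHD2. Of 7 caveola genes tested, 4 were higher in DU145 (57.1%) and none in PC3, against 5.49% and 6.25% over all genes. Their median difference was -2.54. Besides CAVIN1, EHD2 read 4.26 and 3.35 in PC3 and 9.15 and 9.19 in DU145, a difference of -5.36 ± 0.34 (adjusted p = 3.96e-05). CAVIN2 read 2.68 and 2.55 in PC3 and 7.29 and 7.10 in DU145, and CAVIN3 2.68 and 2.20 against 4.79 and 5.17. The caveolin gene CAV1 itself was not called, at 8.56 and 8.29 in PC3 and 8.47 and 8.53 in DU145 (difference -0.08 ± 0.28, adjusted p = 0.868). The 3 cavin genes read 2.80 or less on both PC3 arrays, while CAV1 differed little between the lines. Low cavins were not particular to PC3: CAVIN1 and CAVIN2 were at least 5 in DU145 and at most 3.5 in the other 3 lines.

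NRF2 is a transcription factor that induces genes of glutathione and thioredoxin metabolism and detoxification, and KEAP1 marks it for degradation. Of 33 NRF2 antioxidant genes tested, 10 were higher in DU145 (30.3%) and none in PC3, against 5.49% and 6.25% over all genes. Their median difference was -0.83. NQO1, a quinone reductase, read 8.64 and 8.44 in PC3 and 11.27 and 11.03 in DU145, a difference of -2.61 ± 0.19 (adjusted p = 7.53e-05). UGDH, which makes the sugar donor for glucuronidation, read 9.08 and 9.05 in PC3 and 11.47 and 11.30 in DU145, a difference of -2.32 ± 0.22 (adjusted p = 2.94e-04). GCLC and GCLM, the subunits of the enzyme that limits glutathione synthesis, differed by -1.92 ± 0.18 and -1.42 ± 0.18. All these genes were high on both DU145 arrays and lower, though detected, on both PC3 arrays. ABCC2, an export pump for conjugates, read 2.21 and 2.16 in PC3 and 6.39 and 5.83 in DU145, with a difference of -3.93 ± 0.23 (adjusted p = 2.73e-05). CYP4F11 was the least even, at 1.90 and 3.27 in PC3 and 7.11 and 5.86 in DU145. HMOX1, GSR, FTL and TXN completed the 10, with differences from -1.67 to -1.26. NFE2L2, which encodes NRF2, differed by -0.51 ± 0.16 and KEAP1 by -0.52 ± 0.18, and neither was called.

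The core of the antioxidant response element, TGAC and GCA with any 3 bases between them, was looked for on both strands in the RefSeq promoter windows (250 bases before to 50 after each start, GRCh38.p14 table). It was present in 2 of 8 called NRF2 genes with a window (25%), in 6 of 18 not called (33.3%) and in 1077 of 27305 genes (3.94%). The GCLM window at chr1:93909431-93909490 on the minus strand is shown because GCLM is a called member with a match, which stands in capitals and runs on the other strand.
GCLM: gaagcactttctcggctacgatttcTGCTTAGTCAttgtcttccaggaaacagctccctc
The match is a description of letters and not of binding. The share with a match was no larger among the called genes than among those not called.

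Interferon-stimulated genes encode antiviral proteins and are switched on by STAT complexes that bind a repeated TTTC element. Of 42 tested, 13 were higher in PC3 (31.0%) and none in DU145, against 6.25% and 5.49% over all genes. Their median difference was 0.92. The pairs were unequal: the median was 0.50 in the non-targeting pair and 1.36 in the DNAPK siRNA pair. IFI44L read 6.71 and 7.82 in PC3 and 1.75 and 1.95 in DU145, a difference of 5.42 ± 0.30 (adjusted p = 2.14e-05). OAS2, a synthase that activates RNA decay, read 6.67 and 8.0 in PC3 and 2.90 and 3.16 in DU145, a difference of 4.31 ± 0.33 (adjusted p = 9.78e-05). In both genes the higher PC3 array was the one with DNAPK siRNA. That both PC3 arrays exceeded DU145 follows from the choice of called genes and is no added evidence. IFITM1, a membrane protein that blocks viral entry, read 6.22 and 7.96 in PC3 and 4.40 and 3.55 in DU145. MX1, an antiviral GTPase, read 6.12 and 7.99 against 4.76 and 4.59, and was not called without the DU145 DNAPK siRNA array (adjusted p = 0.051). ISG15, a ubiquitin-like modifier, read 7.33 and 8.53 against 5.44 and 5.76. IFI6 was among the 3 genes whose PC3 minus DU145 difference grew most with DNAPK siRNA. It read 8.05 and 10.01 in PC3 and 7.18 and 6.30 in DU145, and was not called because the non-targeting pair differed by 0.86. IFI44L, IFI44, OAS2 and SAMD9L were at 5 or more in PC3 and at most 3.5 in each other line.

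Promoter windows of the called interferon genes were read on both strands for TTTC blocks with any 2 bases between them. It was found in 8 of 11 called genes with a window (72.7%), in 15 of 23 not called (65.2%) and in 1195 of 27305 genes (4.38%). The 4 windows below show where the motif, in capitals, lies in genes named above or in the same list, each 5′ to 3′ on the strand of the gene in RefSeq GRCh38.p14. GAAA blocks are the same motif on the other strand, and ISG15 holds 2 overlapping copies. They come from chr10:89392482-89392554 (IFIT1), chr1:1013359-1013424 (ISG15), chr21:41431829-41431888 (MX1) and chr1:78620350-78620409 (IFI44L), all on the plus strand.
IFIT1: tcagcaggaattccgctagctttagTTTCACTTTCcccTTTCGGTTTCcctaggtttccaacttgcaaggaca
ISG15: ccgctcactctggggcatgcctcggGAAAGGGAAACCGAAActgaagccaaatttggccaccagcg
MX1: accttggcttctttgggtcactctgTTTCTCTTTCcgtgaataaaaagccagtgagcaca
IFI44L: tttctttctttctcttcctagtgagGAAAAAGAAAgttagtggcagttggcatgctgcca
Called and not called members held the motif at similar shares, so its presence did not separate those that differed between the lines from those that did not.

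Chemokines and cytokines under NF-kB control were called in both directions. Of 34 tested, 6 were higher in PC3 (17.6%) and 4 in DU145 (11.8%), against 6.25% and 5.49% over all genes. CXCL8 (interleukin-8) read 7.24 and 7.53 in PC3 and 3.22 and 3.13 in DU145, a difference of 4.21 ± 0.29 (adjusted p = 5.37e-05). IL33, an alarmin, read 6.19 and 5.21 in PC3 and 2.02 and 1.77 in DU145. CXCL1 and CXCL6, which attract neutrophils like CXCL8, differed by 3.29 and 3.76. In DU145, CSF1, the macrophage growth factor, read 7.24 and 7.05 against 4.47 and 4.89 in PC3, and ICAM1, an adhesion receptor for leukocytes, 9.09 and 8.60 against 6.96 and 7.24.

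Of 39 TGF-beta and activin genes tested, 8 were higher in PC3 (20.5%) and 2 in DU145 (5.13%), against 6.25% and 5.49% over all genes. FST and INHBB were among the first 15 ranked genes. INHBA, the other activin subunit, read 5.52 and 5.16 in PC3 and 1.76 and 2.23 in DU145, so both activin subunits and their trap were high in PC3. GDF15, a stress cytokine, read 8.09 and 9.46 in PC3 and 2.60 and 3.86 in DU145, a difference of 5.54 ± 0.71 (adjusted p = 0.00111). BMPR1B, LTBP1, BAMBI and TGFB3 were the others higher in PC3. ID3, a target of BMP signalling, read 3.22 and 3.17 in PC3 and 5.75 and 4.66 in DU145 (difference -2.01 ± 0.53, adjusted p = 0.0242), and TGFBR1 differed by -1.22. ID3 was not called without either PC3 array or without the DU145 non-targeting array (adjusted p from 0.0862 to 0.164), and TGFB3 was not called without the PC3 DNAPK siRNA array (adjusted p = 0.0508).

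Wnt signalling is the pathway in the study's title, and its lists were not tested as sets. Of 49 ligands, receptors and antagonists tested, 6 were higher in PC3 (12.2%) and 2 in DU145 (4.08%), with a median of -0.03. The shares over all genes were 6.25% and 5.49%. LGR5, a receptor for R-spondins, read 6.39 and 6.24 in PC3 and 2.32 and 2.25 in DU145, a difference of 4.03 ± 0.16 (adjusted p = 4.67e-06). FZD4, a frizzled receptor, read 7.78 and 6.70 in PC3 and 4.12 and 3.65 in DU145. The ligands WNT5A, WNT7A and WNT9A differed by 2.09, 2.10 and 1.49, and WNT9A was not called with array medians set equal. The secreted antagonists went opposite ways. DKK1 read 10.96 and 10.90 in PC3 and 7.80 and 7.75 in DU145, a difference of 3.15 ± 0.21 (adjusted p = 5.25e-05), whereas SFRP1 read 3.23 and 3.51 in PC3 and 6.63 and 6.37 in DU145. LRP6, a Wnt co-receptor, was higher in DU145 by a difference of -1.30 ± 0.20 (adjusted p = 0.00236). Beta-catenin components and targets gave 4 of 33 higher in PC3 (12.1%), LGR5 again among them, and 1 in DU145 (3.03%).

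Notch genes gave 4 of 21 higher in PC3 (19.0%) and 1 in DU145 (4.76%), against 6.25% and 5.49% over all genes. JAG1, a Notch ligand, read 9.62 and 9.44 in PC3 and 5.14 and 4.96 in DU145, a difference of 4.48 ± 0.22 (adjusted p = 1.34e-05). HES1, a target, read 8.35 and 8.29 in PC3 and 6.46 and 6.26 in DU145, while HEYL, another target, differed by -1.39. Of receptor tyrosine kinases and their ligands, 9 of 42 were higher in PC3 (21.4%) and 3 in DU145 (7.14%). Ephrin receptors made up 6 of the 9, EPHA1, EPHA2, EPHA5, EPHA7, EPHB3 and EPHB6, with differences from 1.39 to 2.39. MET, the receptor for hepatocyte growth factor, read 10.11 and 10.09 in PC3 and 8.66 and 8.75 in DU145. On the DU145 side stood EREG (epiregulin), an EGF receptor ligand at 7.79 and 8.57 against 3.73 and 4.25 in PC3, and VEGFA, at 9.44 and 9.57 against 7.28 and 7.16. EGFR differed by -0.40 ± 0.33 and was not called.

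Several further lists held called genes of both directions, against shares of 6.25% and 5.49% over all genes. ETS factors gave 4 of 24 higher in PC3 (16.7%), EHF, ETV1, SPDEF and ETV4, and 1 in DU145 (4.17%). ETV1 read 5.92 and 6.15 in PC3 and 2.23 and 2.41 in DU145. HOX genes gave HOXB13 for PC3 (5%) and 4 of 20 for DU145 (20%), HOXC9, HOXB7, HOXB9 and HOXC10, with differences from -2.0 to -1.25. HOXB9 was not called without either PC3 array or without the DU145 DNAPK siRNA array (adjusted p from 0.056 to 0.115). IGF axis genes gave 2 of 14 each way (14.3%). IGFBP5 read 7.71 and 7.28 in PC3 and 3.12 and 3.59 in DU145, and IGFBPL1 2.68 and 2.84 against 6.78 and 7.06. NEFL, a neurofilament gene, read 10.05 and 9.97 in PC3 and 4.86 and 4.91 in DU145, so neuronal markers were also split, with UCHL1 on the other side. The neuroendocrine markers CHGA, SYP and INSM1 were at 3.45 or less in both lines. The remaining one, ENO2, read 5.38 and 5.14 in PC3 and 4.85 and 5.36 in DU145, against 3.91 and 4.33 in C4-2B and 4.17 and 4.79 in VCaP. INPP4B, a lipid phosphatase of the PI3K pathway, read 6.36 and 6.73 in PC3 and 4.29 and 3.85 in DU145. F3, the tissue factor of coagulation, read 4.34 and 4.24 in PC3 and 7.56 and 6.5 in DU145, and THBS1 (thrombospondin) 10.31 and 10.47 against 8.35 and 7.44. CD79A, a B cell gene, was called higher in DU145 (difference -2.50 ± 0.17, adjusted p = 5.20e-05), as was KDR, an endothelial receptor, in PC3 (2.28 ± 0.22, adjusted p = 2.94e-04), while PTPRC, CD3E, LYZ, CDH5 and VWF were at 3.18 or less on all 4 arrays.

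Few genes of the proliferation and DNA repair lists were called. The shares over all genes were 6.25% and 5.49%, and the departure of these lists from them was not tested. Of 39 mitosis genes, none was called, with a median of -0.34. That median was 0.03 in the non-targeting pair and -0.69 in the DNAPK siRNA pair. Of 44 replication genes, POLE2 and TIPIN (4.55%) were higher in DU145, with differences of -1.39 ± 0.20 and -1.59 ± 0.19, and the list medians of the pairs were -0.01 and -0.60. The difference between the pairs was not tested for these lists. None of 20 mismatch repair and end joining genes was called, and of 28 genes of the p53 family and its targets, GDF15 was the only one called.

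**Figure D5:**
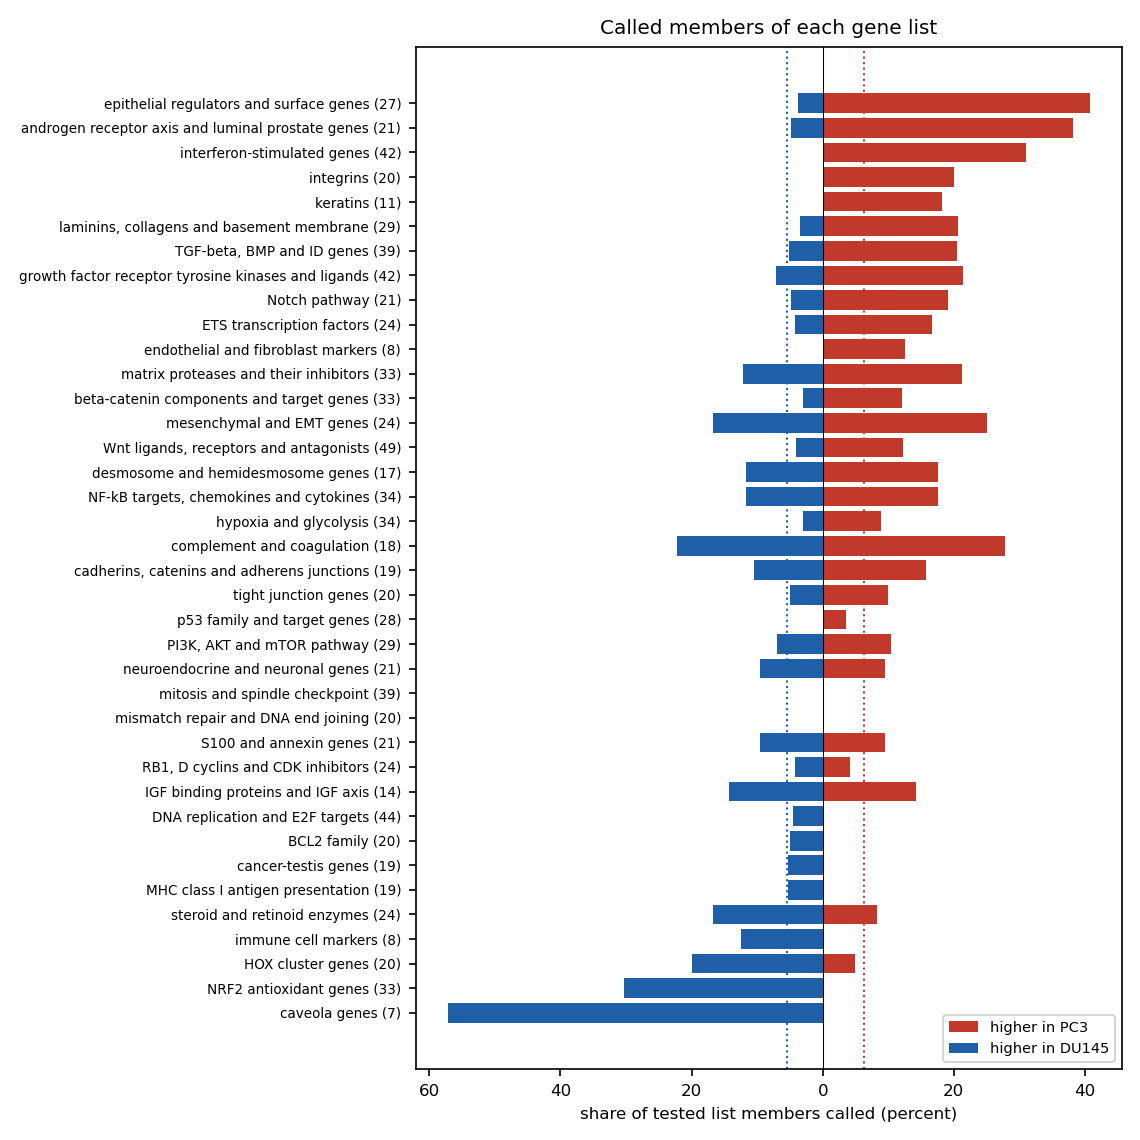
Share of tested members called higher in PC3 (red, to the right) or in DU145 (blue, to the left) for each of 38 gene lists, in percent, with the number tested in parentheses. Dotted lines mark the shares over all tested genes, 6.25% and 5.49%. Epithelial, luminal and interferon lists reach furthest to the right, and caveola and NRF2 lists furthest to the left.

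MicroRNAs silence transcripts that match their seed, bases 2 to 8 of the mature strand. The array probes the RNA of the microRNA gene, which includes precursors, so the values are not levels of mature microRNA. Of 441 microRNA genes tested (1018 measured), 10 were higher in PC3 and 6 in DU145. Both shares were below the 6.25% and 5.49% over all tested genes, so microRNA genes as a group were not called often. The genes named here were chosen after their values were seen. The mature sequences are from RefSeq (GRCh38.p14) and are shown, 5′ to 3′ with the seed in capitals, because several genes higher in PC3 share a seed.
hsa-miR-221-3p: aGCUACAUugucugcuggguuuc
hsa-miR-222-3p: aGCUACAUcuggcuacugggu
hsa-let-7a-5p: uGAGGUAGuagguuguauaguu
hsa-miR-4500: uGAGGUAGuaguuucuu
hsa-miR-181b-5p: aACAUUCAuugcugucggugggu
hsa-miR-181a-5p: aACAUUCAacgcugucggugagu
The seed GCUACAU is common to miR-221 (chrX:45746180-45746202, minus strand) and miR-222 (chrX:45747036-45747056, minus strand). GAGGUAG is common to let-7a and miR-4500, from chromosomes 11 and 13, and ACAUUCA to miR-181b and miR-181a, both from chromosome 9.

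MIR221 read 7.37 and 7.18 in PC3 and 3.88 and 4.27 in DU145, a difference of 3.20 ± 0.22 (adjusted p = 6.03e-05). MIR222, its neighbour, read 6.39 and 5.87 in PC3 and 3.80 and 3.83 in DU145, a difference of 2.31 ± 0.24 (adjusted p = 4.21e-04). MIRLET7A2 read 8.40 and 7.93 in PC3 and 3.07 and 3.23 in DU145, a difference of 5.02 ± 0.25 (adjusted p = 1.21e-05). For each, both arrays of PC3 exceeded both of DU145, which the choice of called genes largely fixes. MIR4500 differed by 2.63 ± 0.28 (adjusted p = 4.72e-04). MIR100 and MIR125B1, which lie on chromosome 11 with MIRLET7A2, did not pass the filter on dim genes and were not tested, and read 5.43 and 5.65, and 4.08 and 3.70, in PC3 against at most 1.99 in DU145. MIR100HG, the annotated host transcript, differed by 0.73 ± 0.17 and was not called. On the DU145 side, MIR181B2 read 5.27 and 4.12 against 2.80 and 2.57 in PC3, a difference of -2.01 ± 0.29 (adjusted p = 0.00193). MIR181A2 had the same direction but uneven pairs, at 4.81 and 3.26 in DU145 and 1.74 and 2.94 in PC3, and was not called (adjusted p = 0.0515).

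The other 2 lines show how many of these differences set PC3 or DU145 apart. Of the 1050 genes higher in PC3, C4-2B and VCaP both lay nearer to PC3 for 269 (25.6%) and both nearer to DU145 for 543 (51.7%). Of the 922 genes higher in DU145, both lay nearer to DU145 for 229 (24.8%) and both nearer to PC3 for 464 (50.3%). With limits of at most 3.5 and at least 5 on every array, 80 genes were high in PC3 alone and 15 low in PC3 alone. The latter included STAT3, ATP6V0A1, KAT2A, CTNNA1, HEXA, a lysosomal hexosaminidase, and CBS, an enzyme of cysteine synthesis. HEXA read 2.82 and 2.10 in PC3 and 6.76 and 6.67 in DU145. In DU145, 44 genes were high alone and 20 low alone, the latter with GRHL2, EHF, AP1M2, HOXB13, TMPRSS2 and EFNB2, an ephrin ligand. EFNB2 read 6.92 and 7.25 in PC3 and 3.44 and 2.87 in DU145. Genes of this paragraph that no list holds were named after their values were seen.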

How the data were processed

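Total RNA (400 ng per array) was labelled with a whole-transcript kit, per the labels' protocols. The authors made the deposited log2 signals, 1 for each probe set, with oligo and RMA, per the submitters' processing notes; versions are not given in the sources used here. RMA makes the distributions of the arrays alike, so differences are relative to the bulk of transcripts. Array medians were 2.94 to 2.99, and the number of arrays limits the precision. No scan batch or detection call was examined.

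Of 53617 probe sets, 23871 had 1 gene symbol, 1842 had several and 27904 were unnamed here. Symbols were matched to RefSeq (GRCh38.p14) through the Entrez identifier for 22569 probe sets, and each of 22395 genes was read from its brightest probe set (632 had over 1). Genes whose mean did not exceed 2.51, the lowest 25%, were left out, which kept 16796. The fit was limma 3.58.1 (lmFit and eBayes, R 4.3.3, 2-sided) on all 8 arrays with cell line and siRNA as terms, 3 residual degrees of freedom and 7.55 with the prior. The siRNA pairs the arrays of the lines. Cultures were not replicated within a line and siRNA, so p-values measure how far the line difference varies between siRNAs, as seen over 4 lines. The scripts were tested on simulated data.

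The comparison and the 38 lists were chosen with earlier results of these data known, so no set test is given. Named genes are the 15 called genes per direction with the largest difference in the weaker pair (small RNA genes, pseudogenes and genes with LOC, LINC or antisense symbols left out), the 4 called members of each list with the largest difference, the 3 genes per direction whose pairs differed most, the markers, and CTNNA1, RB1, CDKN2A and CAVIN1. Other genes, list members included, were named after their values were seen. Y-linked genes and some planned items are not reported here.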

Additional observations from a re-analysis of the deposited data

Results flagged for a closer look

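The line difference had opposite directions in the 2 siRNA pairs, past 2-fold each way, for 2 genes of low signal. DDTL, a homologue of D-dopachrome tautomerase, was higher in PC3 with non-targeting siRNA (1.37) and lower with DNAPK siRNA (-1.03). Its arrays read 3.58 and 2.74 in PC3 and 2.22 and 3.77 in DU145. MT1JP, a metallothionein pseudogene, was lower in PC3 with non-targeting siRNA (-1.07) and higher with DNAPK siRNA (1.25), with arrays at 2.41 and 3.12 in PC3 and 3.48 and 1.87 in DU145. Each value rests on 1 array per line and siRNA, and the difference between the pairs was not tested.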

How the results depend on the processing

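The counts of 1050 genes higher in PC3 and 922 in DU145 moved past 1.5 times only with the fold demanded of each pair, to 2032 and 1851 at 1.5-fold and to 332 and 239 at 4-fold. Without the siRNA as a replicate block the counts were 1050 and 919, and with the 4 arrays of PC3 and DU145 alone and the siRNA as block 1058 and 926. Leaving out each PC3 or DU145 array in turn gave 1203 to 1328 and 1090 to 1181, where the lone array of a line is assumed to vary like the others and 1 pair sets the fold. Setting array medians equal moved the median of all genes by -0.08 and turned the balance, to 925 and 1044. The other settings (no filter, a filter at the median, mean of probe sets, cyclic loess, another variance prior, without VCaP) gave 805 to 1080 and 681 to 943. Of 247 genes followed (named genes and all called list members), 240 were called. The call ended for 22 of them when some PC3 or DU145 array was left out, for 7 with array medians equal (ACP3, ADAM12, CA12, NOTCH2, PIK3R3, TGFB3 and WNT9A) and for ACP3 and NOTCH2 with cyclic loess. Among them, directions reversed only for dim ones with unequal pairs: with each array left out in turn, DDTL (0.17) ran from -0.71 to 1.05, at -0.55 without the PC3 non-targeting array, and FAM66E (-0.65) from -1.61 to 0.31, at 0.18 without that array. The cause was not tested.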

Other observations

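Called genes often stood next to each other. Along 11655 protein-coding genes in RefSeq order with a signal of at least 4 on some array, 8.12% were higher in PC3, and so were 20.3% of the genes that follow such a gene. For DU145 the shares were 6.85% and 17.1%. There were 33 runs of 3 or more genes higher in PC3 and 25 higher in DU145, the longest of 8 genes. On chromosome 11 the gel-forming mucin genes MUC6, MUC5AC and MUC5B formed a run higher in PC3, with MUC5B at 8.03 and 6.98 in PC3 and 3.22 and 3.13 in DU145. Close homologues in such clusters can share probes, which was not tested. On chromosome 7 the semaphorin genes SEMA3E, SEMA3A and SEMA3D, encoding secreted guidance proteins, were a run higher in PC3, with SEMA3A at 7.89 and 7.81 against 3.58 and 3.45. On chromosome 17 the Schlafen genes SLFN11, SLFN12 and SLFN13 were a run higher in DU145. SLFN11, known for making cells sensitive to replication stress, read 5.30 and 4.56 in PC3 and 7.24 and 7.27 in DU145, and SLFN12 2.13 and 2.29 against 6.5 and 6.51.

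The balance of directions also varied by chromosome. Over all protein-coding genes tested, 6.81% were higher in PC3 and 5.77% in DU145. On chromosome 9, 15 of 587 genes were higher in PC3 (2.56%) and 78 in DU145 (13.3%), with a median difference of -0.37. Among them was GNAQ, a G protein subunit, at 3.43 and 4.13 in PC3 and 7.81 and 7.87 in DU145. On chromosome 3 the counts were 88 and 29 of 756 (11.6% and 3.84%, median 0.25). On chromosome 13 they were 25 and 3 of 234 (10.7% and 1.28%, median 0.07). Copy number of these lines was not analysed here. Mucous secretory genes outside the mucin run were high in PC3 as well: TFF2 read 8.09 and 7.29 in PC3 and 3.43 and 3.83 in DU145, and REG4 6.34 and 5.35 against 1.99 and 1.94. These genes were chosen after their values were seen.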
